A study of Rattus norvegicus with 4 samples.

Results

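The 46 genes named as nuclear receptors were looked up by symbol among the 30708 genes of the RNA-Seq data, and 45 were listed. The remaining one, Nr2e3, was not analysed here. The data came from S16 cells, an immortalized rat Schwann cell line, left unmodified and grown in medium with fetal bovine serum, whose lipids and hormones are not defined. There were 2 populations, WT-1 at passage 9, the parental line of the study's mutant cells, and WT-2 at passage 39, and each gave 2 libraries labelled technical replicates 1 and 2. Each passage is thus a single culture of a single line. For every library the authors deposited RPKM values (reads per 1000000 reads and per kilobase of the gene), which are per length and so can be compared between genes.

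Nuclear receptors are transcription factors that carry a DNA-binding domain and, in most cases, a pocket for a small lipophilic ligand such as a steroid, thyroid hormone, a retinoid, an oxysterol or a fatty acid. Steroid receptors wait in the cytoplasm with chaperones and act mostly as homodimers, whereas receptors for retinoic acid, thyroid hormone, vitamin D, oxysterols and fatty acids sit on DNA with a retinoid X receptor (RXR) and exchange corepressors for coactivators when ligand arrives. Several members have no known physiological ligand and are called orphan receptors, and in Schwann cells, the myelinating glia of peripheral nerve, glucocorticoid, progesterone, thyroid hormone, retinoid and liver X receptors have all been studied as regulators of myelin genes.

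The 4 libraries held between 34246093 and 41382234 reads, as recovered from the steps between RPKM values, and of the 20333 genes above 0 in any library all but 1 gave whole reads, to a tolerance of 1e-09. A library's interval below is the exact 95% Clopper-Pearson interval of its reads, and covers counting error only, since without molecular identifiers copies of one molecule cannot be told apart. The libraries did not group by population. Over the 21 receptors at 1 RPKM or more, the mean chi-square per gene was 1.04 between the libraries numbered 1 of passage 9 and passage 39 and 2.08 between those numbered 2, but 44.2 between both libraries of passage 9 and 39.9 between those of passage 39. Over all genes the corresponding values were 1.15, 1.43, 78.5 and 74.8. The methods say that technical replicates of the lines were pooled and spread over sequencing lanes, but neither they nor the labels say what the number marks, and differences between numbers are given below as differences between libraries. The recovered totals per library are higher than the depth per line that the methods give, and the reason was not tested. All 9 Schwann cell markers were at 1 RPKM or more, among them Sox10 at 176 RPKM on average, and their summed level was between 3767 and 4649 RPKM, lower in both libraries numbered 2. The 6 neuron markers summed to at most 0.0351 RPKM and Syt1 was at 0. Of 5 melanocyte markers Mitf alone reached 1 RPKM and Tyr was at 0, and of 5 macrophage markers Cd68 alone did, with Ptprc and Itgam at 0. Of 5 fibroblast markers Col1a1 stood at 3588 RPKM and Pdgfra at 5.35 RPKM, while Col1a2 was at 0.339 RPKM and Dcn at 0.0033 RPKM. The part that a difference in marker levels played in any receptor's value was not tested.

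S16 cells expressed 21 of the 45 listed receptors at a mean of at least 1 RPKM in both populations. This was 46.7% of the receptors, beside 35.7% of all listed genes. In bulk RNA, fewer cells that express a gene and less RNA per cell cannot be told apart. The mean was at least 10 RPKM for 12 receptors and from 1 to 10 RPKM for 9. A further 7 were between 0.1 and 1 RPKM, 13 were above 0 but under 0.1 RPKM, and 4 were listed at 0 in every library. Nr2f1, Nr2f2 and Nr2f6, of the orphan COUP-TF group, and Rarg and Nr1h2, of the retinoid and oxysterol receptors, stood at the top. The 3 COUP-TF genes alone made up between 42.3% and 46.8% of the summed RPKM of all receptors in a library. The summed level of the receptors was 366 and 424 RPKM in libraries 1 and 2 of passage 9, and 370 and 417 RPKM in libraries 1 and 2 of passage 39. Of the 20 pairs of neighbours in the order of mean level, 11 had ranges over the 4 libraries that overlapped, and 12 kept their order within each of the 4 libraries.

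**Figure D1:**
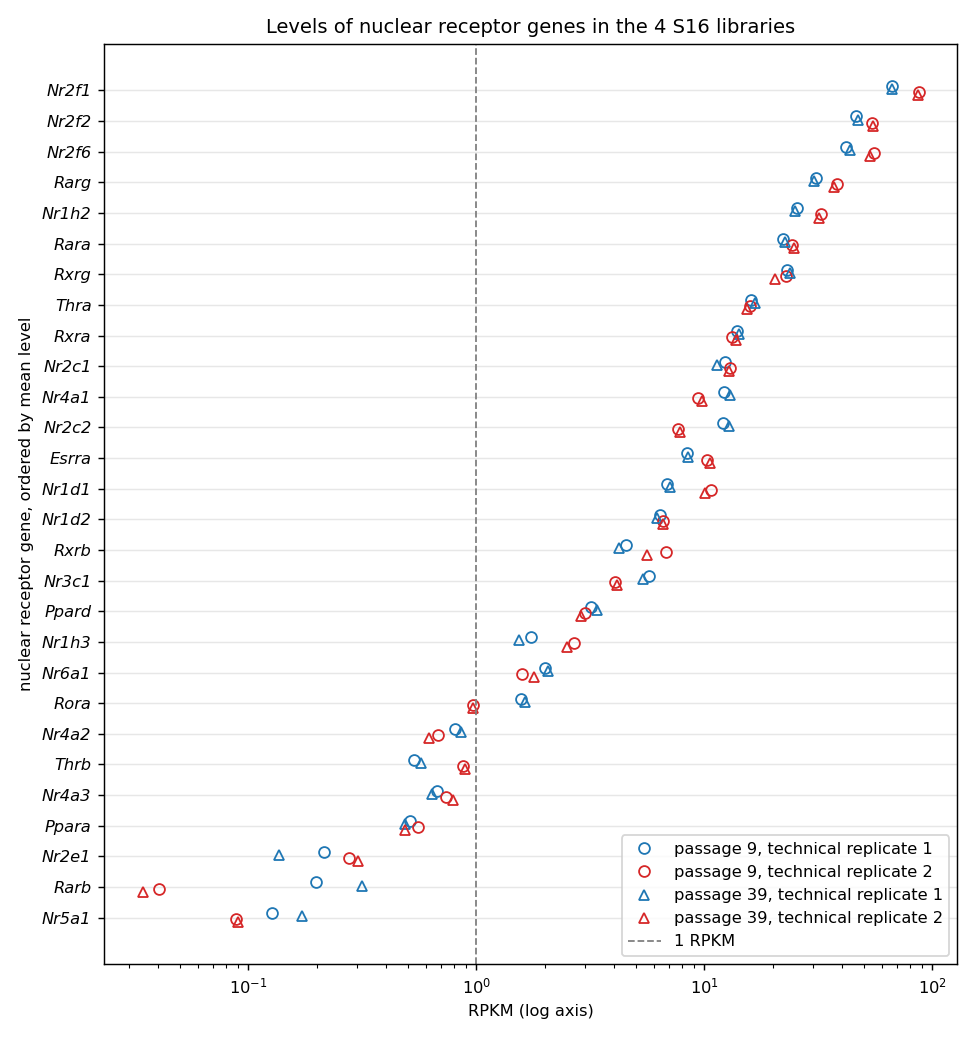
RPKM of the 28 nuclear receptor genes whose mean reached 0.1 RPKM (log horizontal axis), one symbol per library, with passage shown by shape and technical replicate number by colour. Symbols of one colour lie close together for most genes, whereas the colours are apart for genes such as Nr2f1 (66.7 and 66.6 against 87.1 and 86.7 RPKM) and Nr2c2 (12.1 and 12.8 against 7.66 and 7.80 RPKM).

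The COUP transcription factors are orphan receptors that bind direct repeats shared with other receptors and act largely as repressors. Nr2f1 (COUP-TFI) had the highest level of any receptor, 76.8 ± 0.182 RPKM (SD, n = 2 populations), and ranked 839th of all genes. Libraries 1 and 2 of passage 9 gave 66.7 and 87.1 RPKM, and libraries 1 and 2 of passage 39 gave 66.6 and 86.7 RPKM. Both libraries numbered 2 were higher and the passages overlapped. Nr2f2 (COUP-TFII) was at 46.2, 54.2, 47.0 and 55.0 RPKM in the same order of libraries. Nr2f6 (EAR2), the third relative, was at 42.0, 55.5, 43.5 and 53.3 RPKM. The ranges of Nr2f2 and Nr2f6 overlapped, so that their order was not resolved, but both were below Nr2f1 and above every other receptor. Nr2c1 and Nr2c2, the testicular receptors TR2 and TR4, which bind similar repeats, were at 12.4 and 10.1 RPKM on average. Nr2c1 differed little among libraries, with 12.4, 12.9, 11.4 and 12.8 RPKM. Nr2c2 was at 12.1 and 7.66 RPKM in libraries 1 and 2 of passage 9 and at 12.8 and 7.80 RPKM in the same libraries of passage 39, low in both libraries numbered 2. Nr2e1 (TLX), a receptor of neural stem cells, was at 0.232 RPKM with 12 to 32 reads per library.

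The retinoid X receptors are the shared partners of most heterodimers, and all 3 were expressed. Rxrg was at 23.0 and 22.8 RPKM in the libraries of passage 9 and at 23.7 and 20.4 RPKM in the same libraries of passage 39. Rxra was at 13.9, 13.2, 14.2 and 13.8 RPKM, and its range did not meet that of Rxrg. Rxrb was at 4.54, 6.80, 4.23 and 5.58 RPKM. Rxrg therefore gave the largest share of RXR transcripts per length in each library, between 51.3% and 56.3%, ahead of Rxra with 30.9% to 34.7% and Rxrb with 10.04% to 15.9%. The share of Rxrb was higher in both libraries numbered 2. Among the retinoic acid receptors, which take all-trans retinoic acid, Rarg was at 30.9, 38.2, 30.1 and 37.1 RPKM. Rara was at 22.0, 24.3, 22.6 and 24.7 RPKM, below Rarg in each library. Rarb, which is itself a retinoic acid target gene, had 29 and 5 reads in libraries 1 and 2 of passage 9 and 38 and 5 reads in those of passage 39, or 0.198, 0.0404, 0.314 and 0.0345 RPKM. Rarg thus held between 56.8% and 61.1% of the RAR transcripts, and Rarb at most 0.593%.

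**Figure D2:**
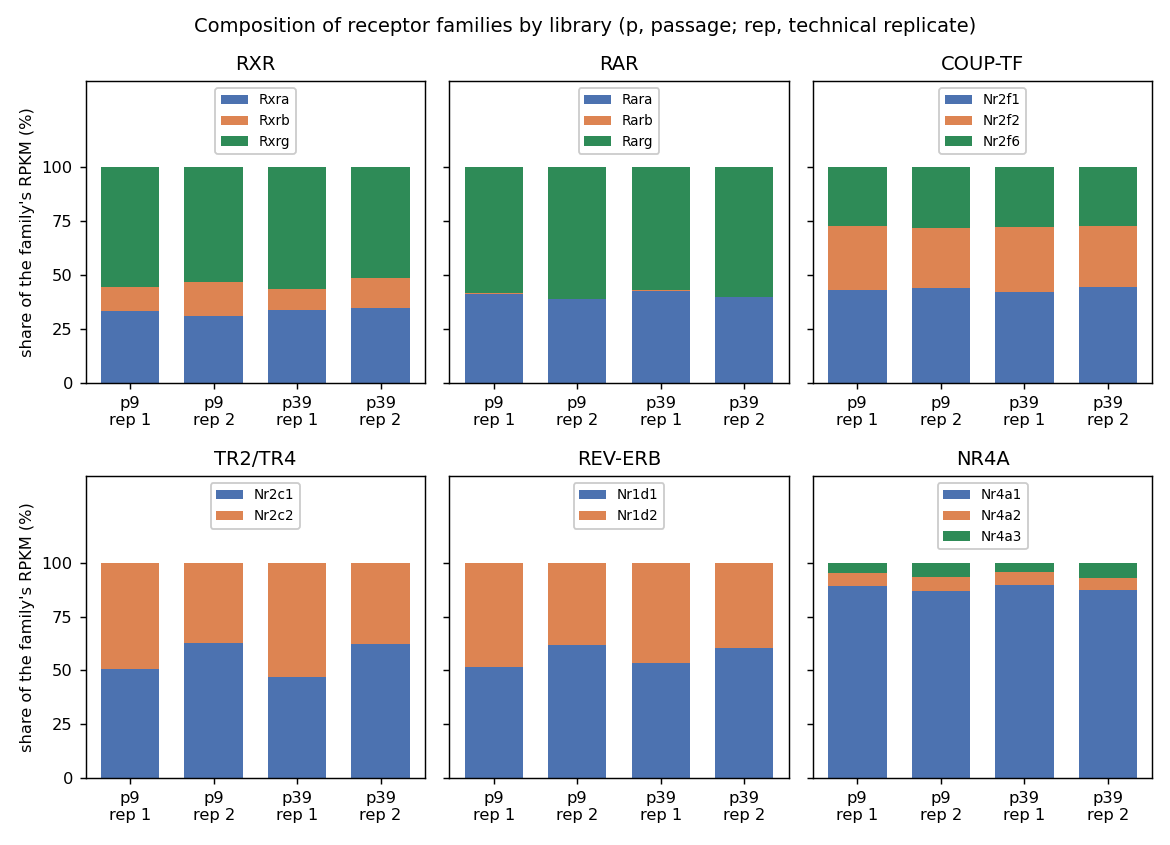
Share of the summed RPKM of each of 6 receptor families (vertical axis, percent) taken by its members in each of the 4 libraries (p, passage; rep, technical replicate). Rxrg holds 51.3% to 56.3% of the RXR family, and the shares of Nr2c1 and Nr1d1 are higher in both libraries numbered 2.

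Liver X receptors sense oxysterols and drive cholesterol efflux. Nr1h2 (LXR beta) was at 25.4, 32.6, 25.1 and 32.0 RPKM, and Nr1h3 (LXR alpha) at 1.73, 2.67, 1.54 and 2.50 RPKM, so that Nr1h2 made up between 92.4% and 94.2% of the pair. The bile acid and xenobiotic receptors of liver and gut were near 0. Nr1h4 (FXR) and Nr1i2 (PXR) each had 1 read in 1 library, and Nr1i3 (CAR) had 2 to 6 reads per library. Of the peroxisome proliferator-activated receptors, which bind fatty acids, Ppard was at 3.18, 3.01, 3.36 and 2.89 RPKM. Ppara stood at 0.509 RPKM on average, and Pparg, the receptor of adipocyte differentiation, had a single read in library 2 of passage 9. Ppard held between 84.2% and 87.4% of the PPAR transcripts.

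Of the thyroid hormone receptors, Thra was at 15.97, 15.9, 16.6 and 15.3 RPKM and held between 94.5% and 96.8% of the pair with Thrb. Thrb was at 0.531, 0.873, 0.573 and 0.894 RPKM, from 253, 353, 226 and 423 reads, higher in both libraries numbered 2. The vitamin D receptor gene Vdr had 1 to 5 reads per library. The glucocorticoid receptor gene Nr3c1 was the single steroid receptor gene above 1 RPKM, at 5.69 and 4.05 RPKM in libraries 1 and 2 of passage 9 and at 5.40 and 4.14 RPKM in the same libraries of passage 39. The mineralocorticoid receptor gene Nr3c2 had 3 to 10 reads per library and Esr2, of estrogen receptor beta, 2 or 3. Esr1 (estrogen receptor alpha) had 1 read in each of 2 libraries, and Pgr (progesterone receptor) 1 read in 1 library. For Pgr, 3 reads would correspond to between 0.0236 and 0.0285 RPKM, so levels under that could not be told from 0 at this depth. The estrogen-related receptor Esrra, a regulator of mitochondrial genes, was at 8.37, 10.3, 8.47 and 10.6 RPKM, while Esrrb and Esrrg each had 1 read in 1 library.

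The REV-ERB repressors and ROR activators compete for the same DNA elements and link the circadian clock to metabolism. Nr1d1 (REV-ERB alpha) was at 6.85 and 10.7 RPKM in libraries 1 and 2 of passage 9 and at 7.08 and 10.04 RPKM in the same libraries of passage 39. Nr1d2 (REV-ERB beta) was at 6.37, 6.58, 6.22 and 6.59 RPKM. Rora was at 1.56, 0.965, 1.63 and 0.968 RPKM and Rorb had at most 1 read in a library. Nr1d1 and Thra overlap on opposite strands at their ends, and because reads were counted without regard to strand, reads in the overlap cannot be assigned to either gene. Of the NR4A receptors, which are immediate early genes that need no ligand, Nr4a1 (NUR77) was at 12.2, 9.38, 12.9 and 9.72 RPKM and held between 86.9% and 89.6% of the family. Nr4a2 and Nr4a3 were at 0.740 and 0.708 RPKM on average. Nr6a1 (GCNF), a repressor of germ cells and early embryos, was at 1.99, 1.59, 2.07 and 1.79 RPKM. Nr5a1 (SF-1), of steroidogenic tissue, had 10 to 19 reads per library and Nr5a2 (LRH-1) at most 1. Hnf4a, Hnf4g, Nr0b1 (DAX1) and Nr0b2 (SHP) were listed at 0 in every library, which is read here only as a gene listed at 0.

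Between passage 9 and passage 39 the receptors differed by very little. None of the 21 receptors with a mean of at least 1 RPKM differed by 2-fold between population means, beside 0.00907% of the 11025 genes tested by the same rule. The differences, taken as passage 39 minus passage 9 on the log2(RPKM + 1) scale, on which low genes appear to change less, ran from -0.18 for Rxrb to 0.07 for Nr6a1. Their median was -0.0048, beside -0.0021 for all genes tested. A gene is called separated here where the 95% intervals of both libraries of one group lie wholly above those of both libraries of the other, and 0 receptors were separated between passages, beside 0% of all genes tested. The values themselves, without intervals, overlapped between passages for all 21 receptors, while they did not for 6.21% of all genes tested, 3.1% higher and 3.11% lower in passage 39. Each passage held 1 library of each number, and for all 21 receptors the values did not overlap between numbers, as given below. Overlap between passages was therefore fixed in advance, and neither count could show that the passages were alike. The same held for 87.7% of all genes tested. There was 1 population per passage, so no test between passages was possible and no p-value is given. The largest difference was that of Rxrb, at 5.67 RPKM in passage 9 and 4.90 RPKM in passage 39, and it lay in the libraries numbered 2 (6.80 against 5.58 RPKM) more than in those numbered 1 (4.54 against 4.23 RPKM). Without library 1 of passage 9, Rxrb was separated between passages, and without library 1 of passage 39, Rxrg was. In both cases the population that lost its library 1 was represented by its library 2 alone. Among the libraries numbered 2, the intervals of Rxrb were 6.37 to 7.26 RPKM in passage 9 and 5.21 to 5.96 RPKM in passage 39. Those of Rxrg were 21.7 to 23.8 and 19.5 to 21.4 RPKM, and for neither gene did they overlap. Among the libraries numbered 1 the intervals of both genes overlapped.

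Between the libraries numbered 1 and 2, 12 of the 21 receptors were separated, 8 higher and 4 lower in number 2. The share of all genes tested that were separated was 50.3%, with 32.5% higher and 17.8% lower, so the receptors' share, 57.1%, was near the background. None of the 21 differed by 2-fold, beside 1.09% of all genes tested. The values themselves, without intervals, did not overlap between numbers for any of the 21, with 12 higher and 9 lower in number 2, beside 87.7% of all genes tested, 57.2% higher and 30.5% lower. The median difference of the receptors, number 2 minus number 1, was 0.11 on the log2(RPKM + 1) scale, and that of all genes tested was 0.10. Values as deposited were thus shifted upwards in number 2 as a whole, and the count of 8 higher and 4 lower changed to 7 and 5 among 21 receptors when libraries were scaled by median ratios. With a common sum of RPKM the split of separated receptors was 6 higher and 7 lower, 46.2% higher in place of 66.7%, among 25 receptors that then reached the minimum.

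On the log2(RPKM + 1) scale, Nr2c2 was lower in the libraries numbered 2 by -0.62 ± 0.039 (SD of the differences within the 2 passages), and its plain RPKM means differed 1.61-fold. Nr1d1 was higher by 0.51 ± 0.088, or 1.49-fold in plain RPKM. Rxrb (0.42), Nr2f1 (0.38), Nr2f6 (0.34), Nr1h2 (0.34), Rarg (0.29), Esrra (0.28) and Nr2f2 (0.22) were also separated and higher in number 2. Rora (-0.40), Nr4a1 (-0.36) and Nr3c1 (-0.36) were separated and lower. In plain RPKM, Rora was 1.65-fold lower and Nr1h3 1.58-fold higher, so that the order of the receptors by difference depended on the scale. Esrra, Rxrb and Nr2f2 were higher but no longer separated when libraries were scaled to a common sum of RPKM. Nr1h3 showed a difference of 0.45, higher in both libraries numbered 2, but with 64 to 125 reads per library its intervals overlapped. Below 1 RPKM, Rarb and Thrb were separated. Rarb was 6.85-fold lower in number 2, on 5 reads in each of those libraries, and Thrb was 1.60-fold higher. The other receptors at 1 RPKM or more differed between numbers by no more than 0.17 in size, from -0.17 for Nr6a1 to 0.13 for Rara, apart from Nr1h3. The signs for Rara, Nr2c1 and Nr1d2 were reversed with a common sum of RPKM, and that for Nr1d2 also with median ratios.

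**Figure D3:**
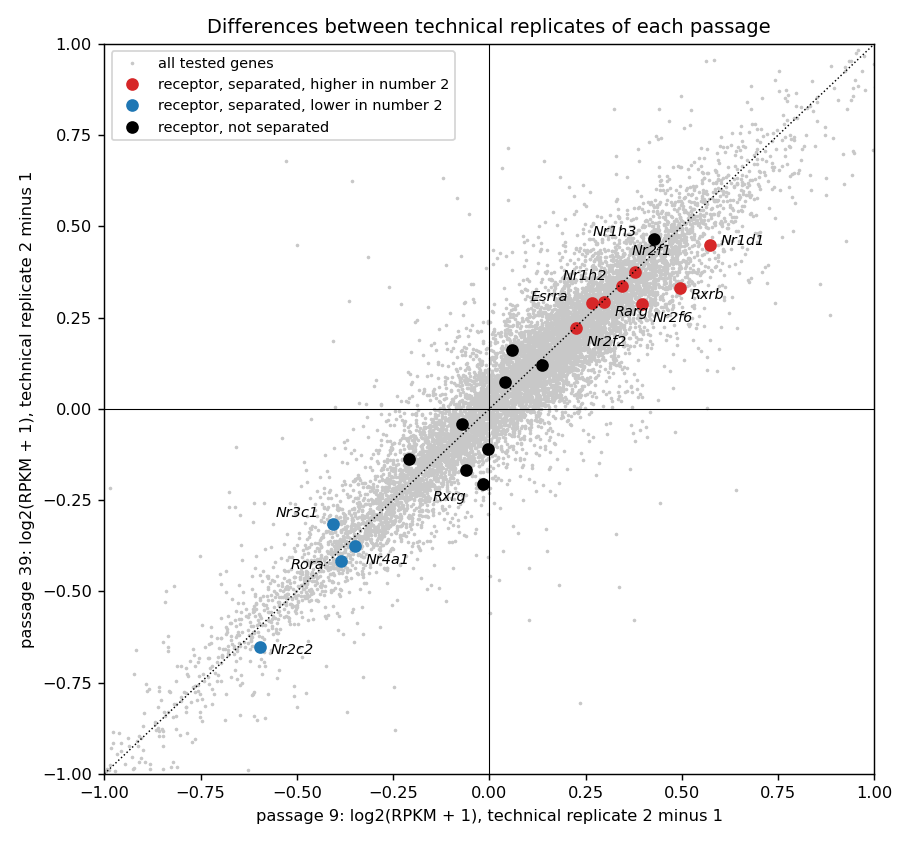
Difference on the log2(RPKM + 1) scale between technical replicates 2 and 1, in passage 9 (horizontal) and passage 39 (vertical), for 10879 of the genes tested (grey, with 146 genes past the axes not drawn) and the 21 receptors (coloured). Receptors lie along the diagonal, from Nr2c2 at -0.60 and -0.65 to Nr1d1 at 0.57 and 0.45.

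Gene length went with the differences between numbers. Across the 11025 genes tested, Spearman's rho between recovered length and the difference was -0.42, and across the 21 receptors -0.48, both across genes of the same 4 libraries, which are not independent replicates. The 8 receptors higher in number 2 had a median length of 2282 bp and the 4 lower a median of 3944 bp. Against genes of similar length, in 20 bins, all 12 separated receptors kept the sign of their difference, with -0.76 for Nr2c2, -0.61 for Rora, 0.36 for Rxrb and 0.35 for Nr1d1. For 6 of the 8 higher receptors the difference shrank by over 1.5 times, to 0.18 for Rarg, 0.17 for Nr2f1, 0.15 for Nr1h2, 0.14 for Esrra and 0.11 for both Nr2f2 and Nr2f6. The share of length in any receptor's difference was not tested.

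Promoter windows of 300 bp, from 250 bp before to 50 bp after the annotated start, were available from RefSeq (GRCr8) for 39 of the 45 receptors. A window was called CpG rich where CpG dinucleotides reached 0.6 of the number expected from its C and G content. Of 19 receptors with a mean of at least 1 RPKM, 16 had such a window (84.2%), and of 20 under 1 RPKM, 8 did (40.0%). The same shares over all listed genes with a window were 79.7% and 27.7%. Nr2f1, the most abundant receptor, and Hnf4a, a liver receptor listed at 0, are shown for contrast, with CpG dinucleotides in capitals. The Nr2f1 window, at chr2:9785875-9786174 on the minus strand, held 27 CpG at 0.777 of expectation, and the Hnf4a window, at chr3:172605970-172606269 on the plus strand and 1 of 2 for this gene, held 6 at 0.266.
Nr2f1: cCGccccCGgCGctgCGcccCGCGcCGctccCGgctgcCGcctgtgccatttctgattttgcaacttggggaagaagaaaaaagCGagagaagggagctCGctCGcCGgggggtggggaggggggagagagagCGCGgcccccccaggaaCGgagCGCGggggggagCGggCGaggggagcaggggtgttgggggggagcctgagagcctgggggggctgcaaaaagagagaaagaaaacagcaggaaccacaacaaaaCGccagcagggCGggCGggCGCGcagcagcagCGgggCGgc
Hnf4a: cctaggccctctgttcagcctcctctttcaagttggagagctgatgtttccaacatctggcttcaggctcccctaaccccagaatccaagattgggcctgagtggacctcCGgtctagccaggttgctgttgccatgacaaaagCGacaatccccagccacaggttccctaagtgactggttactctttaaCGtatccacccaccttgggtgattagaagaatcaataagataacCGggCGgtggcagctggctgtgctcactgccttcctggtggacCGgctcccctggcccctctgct
The contrast was not a rule. Esrrg, with 1 read in 1 library, had a window at 0.973 and Thrb one at 1.02, whereas the single windows of Nr2c2 and Nr1h3, both above 1 RPKM, stood at 0 and 0.236.

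**Figure D4:**
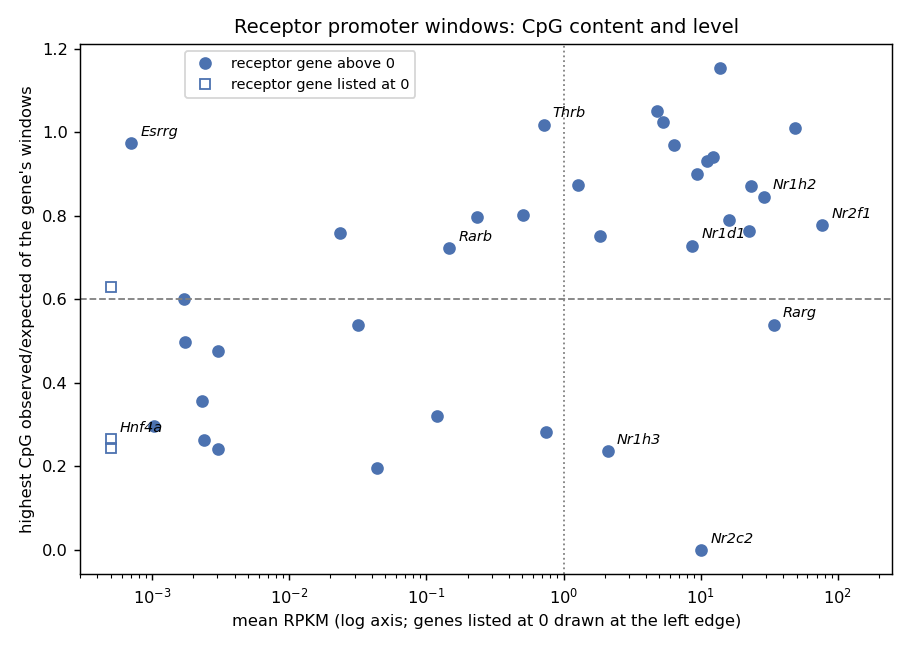
Highest ratio of observed to expected CpG among the promoter windows of each of 39 receptor genes (vertical axis) against mean RPKM (log horizontal axis). The dashed line marks 0.6 and the dotted line 1 RPKM, with 16 of the 19 genes right of the dotted line above the dashed one.

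Of the 9 lists of genes around the receptors, that for retinoids spanned the widest range of differences between numbers. Of its 14 genes, for retinoid metabolism and binding, 5 were at 1 RPKM or more in both populations, and 4 of these were separated, 1 higher and 3 lower in number 2. The share separated was 80% of the 5, beside 50.3% of all genes tested. Aldh1a1, which makes retinoic acid from retinaldehyde, was at 40.1 and 2.07 RPKM in libraries 1 and 2 of passage 9 and at 39.6 and 2.02 RPKM in the same libraries of passage 39. Its plain RPKM means differed 19.5-fold. On the log2(RPKM + 1) scale the difference was -3.75, the most negative of all 11025 genes tested. Aldh1a3, a second enzyme of that step, was at 11.8, 8.38, 12.3 and 8.23 RPKM, and Rdh10, which supplies retinaldehyde, at 9.77, 6.04, 10.3 and 5.55 RPKM. Cyp26b1, which degrades retinoic acid, was at 9.64, 17.0, 9.59 and 16.6 RPKM, higher in both libraries numbered 2. Rdh11 was at 13.9 RPKM on average and not separated. The second ALDH1A gene, Aldh1a2, and the binding protein gene Crabp2 were at 0. Aldh1a1, Aldh1a3 and Rdh10 were lower in number 2, while Cyp26b1 and Rarg were higher and Rara was not separated. Rarb was lower too, on 5 reads in each library numbered 2. The data hold no retinoid levels, and any link among these differences was not tested.

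The Rarb window is shown because it held a direct repeat of receptor hexamers with a spacer of 5 bases, the arrangement known as DR5 that RAR and RXR bind. The search was for any pair of receptor hexamers with 5 bases between them, on both strands, each hexamer being AGGTCA or one of the close variants AGTTCA, as in the second hexamer below, or GGTTCA, as in the first, or also GGGTCA. The match, in capitals, lay from 25 to 41 bases after the start, in the window at chr15:11336142-11336441 on the plus strand.
Rarb: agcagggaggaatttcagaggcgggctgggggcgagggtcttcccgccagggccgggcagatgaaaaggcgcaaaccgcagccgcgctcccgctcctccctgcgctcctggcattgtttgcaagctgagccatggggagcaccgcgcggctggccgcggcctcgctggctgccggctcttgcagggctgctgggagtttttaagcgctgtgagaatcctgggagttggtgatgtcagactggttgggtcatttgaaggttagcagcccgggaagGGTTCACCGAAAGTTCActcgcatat
This arrangement of letters occurred in 0.382% of all 33469 RefSeq windows and in 1 of the 39 receptors with one. A match is a description of the sequence, and binding was not measured.

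**Figure D5:**
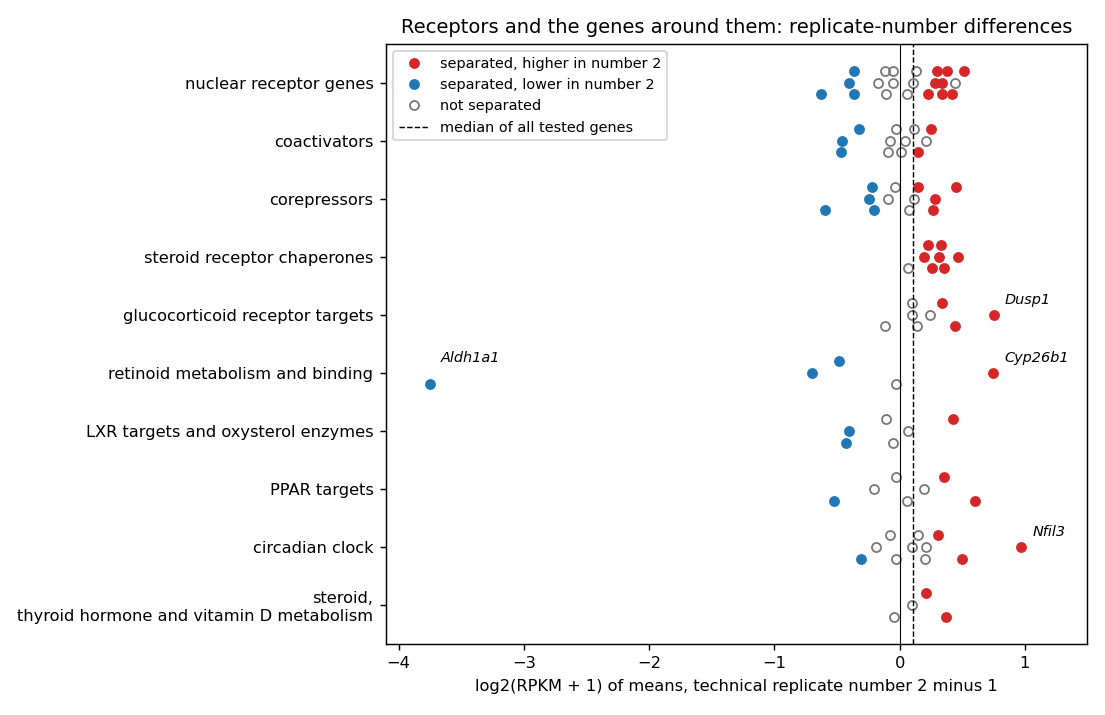
Difference on the log2(RPKM + 1) scale between technical replicate numbers 2 and 1 (horizontal axis) for the receptors and for the genes of 9 lists around them, one symbol per gene with a mean of at least 1 RPKM. Aldh1a1 lies far to the left at -3.75, and 7 of 8 chaperone genes are separated and higher in number 2.

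The cofactors through which receptors act were nearly all expressed. Of 14 coactivator genes 12 were detected, led by Ncoa4 at 38.9 RPKM, Carm1, an arginine methyltransferase, at 25.5 RPKM and the Mediator subunit gene Med1 at 17.3 RPKM, while Ppargc1a, the coactivator of mitochondrial biogenesis, was at 0. In number 2, Pprc1 and Carm1 were separated and higher, and Ncoa2 (-0.47), Kmt2d (-0.46) and Ep300 (-0.32) lower. These were 41.7% of the coactivators tested, beside 50.3% of all genes tested. Against genes of similar length the differences were 0.30 for Pprc1, -0.038 for Carm1, -0.25 for Ncoa2, -0.24 for Kmt2d and -0.10 for Ep300. All 12 corepressor genes were detected, 4 separated and higher and 4 lower, or 66.7% separated beside 50.3% of all genes tested. Gps2 at 36.8 RPKM, Tbl1x at 30.5 RPKM and Hdac3 at 26.4 RPKM, which belong to the NCOR complex, were highest and were higher in number 2. Ncor1, its scaffold, was at 18.6 and 15.9 RPKM in libraries 1 and 2 of passage 9 and at 18.7 and 16.2 RPKM in the same libraries of passage 39. Against genes of similar length the difference of Ncor1 was 0.016, beside 0.22 for Gps2, 0.13 for Tbl1x and 0.074 for Hdac3. Lcor, a ligand-dependent corepressor, differed most, by -0.60.

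Of 9 genes for chaperones that hold the steroid receptors ready for ligand, 8 were detected. Of these, 7 were separated and higher in number 2, where Nr3c1 was lower, or 87.5% beside 32.5% of all genes tested. Intervals narrow as reads rise, and these 7 genes had 759 to 50154 reads per library. The shares were not matched for reads. Against genes of similar length, the differences of these 7 were smaller, from -0.0034 for Ppid and 0.085 for Hsp90aa1 to 0.32 for Hsp90ab1. Fkbp5 was not separated. Hsp90ab1 was at 375, 525, 383 and 522 RPKM, Ptges3, which encodes the cochaperone p23, at 147 RPKM on average, and Stip1 at 135 RPKM. Dnaja1 (0.36) and Stip1 (0.33) followed Hsp90ab1 (0.46) in the size of the difference. Hspa8 stood at 0.724 RPKM on average with a difference of -0.095, and its level is uncertain since only uniquely placed reads were kept and this gene has near-identical copies. Of 10 glucocorticoid target genes 8 were detected, 3 separated and higher and 0 lower. The share higher was 37.5% of the 8, beside 32.5% of all genes tested, so it was near the background. Cebpd, Ddit4 and Tsc22d3 had the highest levels, at 25.4, 20.4 and 16.9 RPKM. Dusp1, a MAP kinase phosphatase, was at 5.24, 10.5, 6.06 and 9.94 RPKM, and Tsc22d3 (0.44) and Sgk1 (0.33) were also higher in number 2. Fkbp5, a chaperone gene that glucocorticoids induce, was at 7.59 RPKM on average.

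Clock genes around the REV-ERBs and RORs were mostly expressed. Of 13 listed genes 11 were detected, 3 separated and higher and 1 lower, or 36.4% separated beside 50.3% of all genes tested. Bhlhe40, at 15.2 RPKM on average, Arntl, which encodes BMAL1, at 14.7 RPKM and Tef at 8.46 RPKM had the highest levels. Nfil3, a repressor opposed to the activators Dbp and Tef, was at 0.446, 1.89, 0.508 and 1.90 RPKM, 3.98-fold higher in number 2. Dbp (0.50) and Tef (0.31), whose products bind the same element, were higher too, as Nr1d1 was, and Bhlhe40 (-0.31) was lower, as Rora was. Arntl and Per1, at 2.44 RPKM, were not separated. Clock itself was at 0.874 RPKM on average, under the minimum, and so is not in these counts. It was at 1.12, 0.650, 1.08 and 0.641 RPKM, separated and 1.71-fold lower in number 2. The second of the 2 Nr1d1 windows is shown because it held the E-box CACGTG, in capitals, the element through which BMAL1 and CLOCK act. It is at chr10:84229405-84229704 on the minus strand, with the match from 191 to 186 bases before the start.
Nr1d1: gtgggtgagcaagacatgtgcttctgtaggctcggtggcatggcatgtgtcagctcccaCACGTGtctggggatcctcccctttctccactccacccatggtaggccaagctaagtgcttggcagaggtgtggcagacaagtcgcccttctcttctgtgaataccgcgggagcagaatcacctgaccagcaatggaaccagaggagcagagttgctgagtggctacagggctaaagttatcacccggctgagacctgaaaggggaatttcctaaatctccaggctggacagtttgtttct
The same letters, which read alike on both strands, occurred in 6.42% of all windows, and the other Nr1d1 window had none.

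Genes downstream of the lipid-sensing receptors were split. Of 9 LXR targets and oxysterol enzymes 6 were detected, 1 separated and higher and 2 lower. The share separated was 50% of the 6, beside 50.3% of all genes tested. Scd, a desaturase of fatty acids, was at 404, 303, 402 and 306 RPKM, followed by Lpcat3 at 23.9 RPKM and the cholesterol exporter gene Abca1 at 15.99, 11.7, 16.1 and 11.6 RPKM. Cyp27a1, which makes an oxysterol, was higher in number 2 by 0.43. Scd and Abca1 were separated and lower in number 2, while Srebf1 (0.066), Mylip (-0.052) and Lpcat3 (-0.11) were not separated. Against genes of similar length the differences were -0.42 for Scd, -0.33 for Abca1 and 0.29 for Cyp27a1, beside 0.15 for Nr1h2. Any link between Nr1h2 and these genes was not tested. Abcg1, the other exporter gene, was at 0.00429 RPKM. Of 10 PPAR targets 6 were detected, and of the 7 with a mean of at least 1 RPKM, 2 were separated and higher and 1 lower. That made 42.9% separated, beside 50.3% of all genes tested. Cpt1a, of fatty acid oxidation, was at 23.5 RPKM on average and not separated. Plin2, of lipid droplets, was at 12.8, 20.5, 13.4 and 20.3 RPKM, Acadm was higher by 0.35 and Pdk4 lower by -0.52, and the adipocyte genes Fabp4 and Cd36 were at 0. Of 16 genes for steroid, thyroid hormone and vitamin D metabolism 4 were detected, and Tspo, at 107, 144, 108 and 135 RPKM, and Srd5a3 were separated and higher. These made up 50% of the 4, beside 32.5% of all genes tested. Hsd17b4 was at 23.1 RPKM and Srd5a1 at 5.24 RPKM, neither separated. Cyp11a1, the first enzyme of steroid synthesis, and the deiodinase genes Dio1 and Dio2 were at 0.

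Over the 9 lists together, 39 of 72 genes tested were separated between numbers, 25 higher and 14 lower, beside 50.3% of all genes tested. None was separated between passages, which was fixed in advance for the 64 whose values did not overlap between numbers. The calls for the lists are on values as deposited, which were shifted upwards in number 2 as a whole. The lists describe what stood around the receptors and were not tested as sets.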

How the data were processed

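Per the labels and the study's methods, RNA was taken with TRIzol, and the authors made poly(A) TruSeq libraries, sequenced single ends of 50 bp, aligned them to the rat rn5 genome with STAR, kept reads that mapped uniquely and summed them by gene in HTSeq with strand disabled. FastQC was the quality check. The authors deposited RPKM values, 1 per gene symbol, and the gene lengths and totals behind them are not given in the sources used here. The methods name Ensembl, while the files point to RefSeq gene models.

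From these RPKM values, whole reads, lengths and totals were recovered in their smallest form, and where a gene's length and reads share a factor, reads are understated. The recovery and the calls were tested on simulated data. The depth of 34.2 to 41.4 M reads (M, 1000000) per library put 3 reads of Nr2f1 at 0.0470 to 0.0568 RPKM. Population means, differences on the log2(RPKM + 1) scale with a pseudocount of 1 RPKM, and exact 95% intervals were obtained in Python 3.11.15 (scipy 1.17.1, numpy 2.4.6 and pandas 2.3.3). Genes were compared between libraries at a mean of at least 1 RPKM. With 1 population per passage and technical libraries only, no p-values were computed. Detected means both population means at 1 RPKM or more.

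The receptors, lists and markers were chosen with earlier results of these data known. All receptors are accounted for, those at 1 RPKM or more or separated in a comparison with values and the rest by range, with the highest 5 and those at 0 named. From each list, the 3 genes with the highest mean and the 3 separated genes with the largest difference are named, and a few others were named after their values were seen. Alternatives were 2 scalings, other minimums, a pseudocount of 0.1 RPKM, a 1.5-fold limit, 99% intervals, each library left out and differences taken within each technical replicate number. The comparison with genes of similar length, and the scalings and left-out libraries for separated genes, were chosen after seeing the data. A few genes that this rule or the marker lists cover are not reported here. Mutant and clonal libraries were not analysed here.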

Additional observations from a re-analysis of the deposited data

Results flagged for a closer look

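In 6 of the 41 receptor genes above 0, a single library stood far from the other 3 by Dixon's criterion for 4 values. These were Pgr, Esrrb, Esrrg, Pparg, Nr1h4 and Nr1i2, each with a gap that made up the whole range (a ratio of 1). Each had 1 read in 1 library and none in the others, so these values were at the limit of the depth. A gene with 1 read in 1 library and none in the others gives a ratio of 1 by construction. The usual rate of about 1 in 20 groups, which would be about 2 of 41, therefore does not apply to them.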

How the results depend on the processing

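With 1 population per passage the spread between cultures of one passage is unknown, and intervals cover counting error only. The detected count was 20 to 28 over all alternatives except a minimum of 5 RPKM, which gave 15. No receptor differed by 2-fold between passages under any alternative. With the pseudocount of 1 RPKM, receptors under 1 RPKM in both populations could not reach 2-fold, so the alternative without a filter decides nothing there. Vdr, for example, was at 0.0505 RPKM in passage 9 and 0.0131 RPKM in passage 39, on 1 to 5 reads per library. Between technical replicate numbers, 1 receptor, Nr2c2, passed 1.5-fold on the log2(RPKM + 1) scale, where Rora and Nr1h3 passed it in plain RPKM too. The count separated between numbers ran from 11 to 14, with 6 to 9 higher in number 2, and left-out libraries gave 13 to 14. Between passages, leaving out each library in turn gave 0 to 1 separated receptors. The median difference between numbers was -0.029 with a common sum of RPKM, 0.026 with median ratios, 0.0030 without a filter, 0.18 at or above 5 RPKM and -0.032 against genes of similar length, and 0.054 to 0.11 with a library left out. The cause of these shifts was not tested. The median difference between passages ran from -0.051 to 0.021 with a library left out. No called receptor changed sign under any alternative. Same-numbered libraries deviated together (r = 0.94 over the genes tested), but the labels tie the numbers to nothing shared. With the replicate block, the differences between passages had a median of -0.0043 and 0 receptors past 2-fold.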
